A study of Homo sapiens with 16 samples.

Results

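SNORA66 and SNORD21 are small nucleolar RNAs (snoRNAs) that lie in introns of RPL5, the gene of a protein of the large ribosomal subunit that binds 5S rRNA. They are 2 of the 413 snoRNA rows measured, and they were chosen by name, as the H/ACA and the C/D member of a shared host gene. Their values in extracellular vesicles (EVs) and in cells were known when they were chosen. Their EV values set against cell values are therefore a description without a test, and the pair is tested only between isolation methods and between cell lines. Calls between EVs and cells are given for other rows, as the setting of these values.

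Small RNA was sequenced from EVs in serum-free conditioned medium (CM) of the prostate cancer line PC3 and the breast cancer line MDA-MB-231, and from the cells themselves. EVs came from next-gen ATPS, in which vesicles partition between PEG and dextran phases and the dextran is then digested with dextranase, from UC (ultracentrifugation, taken by elimination to be the libraries labelled VC, so every UC value rests on that reading), or from the exoRNeasy kit, a membrane column. With both lines this gave 8 groups of 2 libraries, 12 EV libraries and 4 cell libraries. RNA of next-gen ATPS EVs, UC EVs and cells was extracted with TRIzol, and that of exoRNeasy EVs with the kit. In comparisons with exoRNeasy EVs, EV isolation and RNA extraction therefore cannot be told apart. No source used here says if replicate libraries are of different cultures, and a p-value given here is therefore about the spread of these libraries, which may be technical.

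A snoRNA is cut out of a spliced intron and protected by the proteins that bind it. C/D snoRNAs guide 2′-O-methylation of ribosomal RNA, and H/ACA snoRNAs guide the conversion of uridine to pseudouridine. SNORD21 is a guide for a site in 28S rRNA and SNORA66 for a site in 18S rRNA. Because both are cut from introns of a shared precursor, splicing releases them together, but each is then bound by its own set of proteins, fibrillarin and NOP56 among those of C/D RNAs and dyskerin among those of H/ACA RNAs. Many snoRNA hosts are ribosomal protein genes, as RPL5 is.

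SNORA66 (ENSG00000207523.1) lies at chr1:92840719-92840851 in hg38, on the plus strand, in intron 7 of the 7 introns of the canonical RPL5 transcript (ENST00000370321.8), 79 bases after exon 7. SNORD21 (ENSG00000206680.1) lies at chr1:92837289-92837383 on the same strand in intron 5, 72 bases before exon 6. RPL5 itself spans 92832013 to 92841924 on chromosome 1 and holds no other snoRNA on its strand. Both sequences are printed because the 2 values compared throughout are counts of short reads from them. Capitals mark the box pairs that give the classes their names, the H box (ANANNA, searched in the middle of the RNA) and the ACA box in SNORA66, the C box (TGATGA) and the D box (CTGA) in SNORD21.
SNORA66: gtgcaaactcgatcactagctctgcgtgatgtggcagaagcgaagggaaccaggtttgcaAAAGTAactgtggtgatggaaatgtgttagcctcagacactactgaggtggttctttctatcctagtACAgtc
SNORD21: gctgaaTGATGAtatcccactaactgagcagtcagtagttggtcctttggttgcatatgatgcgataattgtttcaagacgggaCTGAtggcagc

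In SNORA66, which is 133 bases long, the H box begins at base 61 and the ACA box ends 3 bases before the 3′ end. In SNORD21, which is 95 bases long, the C box begins at base 7 and the D box ends 7 bases before the 3′ end. Of the rows whose names GENCODE v44 also lists, 72.8% of 136 H/ACA rows held an ANANNA in the middle part together with an ACA 3 bases from the end, and 64.9% of 248 C/D rows held a TGATGA near the start together with a CTGA near the end, on the strand of the RNA. Both RNAs thus held the boxes of the class in their names. The 2 RNAs had a like base composition, 47.4% GC in SNORA66 and 45.3% GC in SNORD21.

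Reads of 18 to 35 bases were kept, so every value counts fragments and not whole snoRNAs. Neither RNA aligned elsewhere in hg38 over most of its length. Of all windows of 18 bases, 82.8% of SNORA66 and 96.2% of SNORD21 occurred at no other place in hg38, and every window of 24 bases in both RNAs did so. The shortest reads of SNORA66 may thus be shared with other places, and the lengths and positions of the reads themselves were not analysed here.

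**Figure D1:**
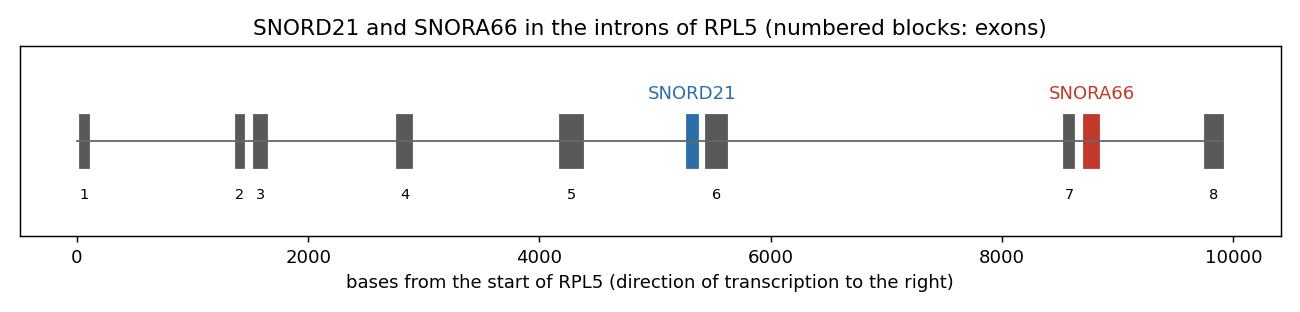
RPL5 drawn to scale along its direction of transcription, in bases from its start, with its 8 exons as numbered grey blocks. SNORD21 (blue) sits in intron 5 close to exon 6, and SNORA66 (red) sits in intron 7 close to exon 7.

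The values are named TPM and are a library's reads of a snoRNA as a share of its snoRNA reads, scaled to the same total in all libraries with no length term. EV libraries held 41519 to 400429 snoRNA reads, so 1 read was worth 2.50 to 24.1 TPM. Of the cell libraries, 3 held 3555333 to 10849128 reads, and MDA-MB-231 cell replicate 2 held 16635. That library stands apart, since its 3-read limit of detection is 180 TPM, and the main values that rest on it are given with and without it. H/ACA rows took 2.12% to 6.07% of snoRNA TPM in EVs and 0.565% to 0.882% in cells. Marker miRNAs of other tissues were low in all groups. Of 4 blood cell miRNAs 1 was in the table and reached at most 0.101% of miRNA TPM, of 2 neuronal miRNAs 1 reached at most 0.0472%, and those of liver and muscle were absent. Of 6 epithelial miRNAs, 3 were in the table with a sum of at most 0.0399%, while miR-141-3p, miR-429 and miR-205-5p had no row in it. The levels of the 3 in the table thus do not mark either line as epithelial.

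SNORA66 was among the most abundant H/ACA fragments of every EV preparation and a minor one in cells. In PC3, next-gen ATPS EVs had 883 and 1012 TPM of SNORA66 (38 and 42 reads), UC EVs had 3874 and 3662 TPM, exoRNeasy EVs had 3818 and 4494 TPM, and cells had 61.0 and 50.8 TPM (217 and 551 reads). In MDA-MB-231, next-gen ATPS EVs had 7477 and 4646 TPM, UC EVs had 2705 and 4533 TPM, exoRNeasy EVs had 4206 and 4217 TPM, and cells had 13.3 and 0 TPM. All 12 EV libraries lay above all 4 cell libraries, the lowest EV values being those of PC3 next-gen ATPS. The 0 in MDA-MB-231 cell replicate 2 stands for 0 of 16635 reads, which allows up to 180 TPM (3 reads), and the 13.3 TPM of replicate 1 rests on 52 reads (95% Wilson interval 10.2 to 17.5 TPM). These intervals and limits cover counting error only, because the reads carry no molecular identifiers.

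SNORD21 stayed within a narrow band. In PC3, next-gen ATPS EVs had 5949 and 5491 TPM, UC EVs had 6074 and 6072 TPM, exoRNeasy EVs had 5970 and 5200 TPM, and cells had 4341 and 4168 TPM. In MDA-MB-231, next-gen ATPS EVs had 7153 and 5467 TPM, UC EVs had 9392 and 7948 TPM, exoRNeasy EVs had 4295 and 5038 TPM, and cells had 7341 and 5891 TPM. The EV libraries lay above the cell libraries in PC3, and in MDA-MB-231 the values of EVs and cells overlapped. The value in MDA-MB-231 cell replicate 2 rests on 98 reads and the others on 221 or more, so SNORD21 was measurable in every library.

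**Figure D2:**
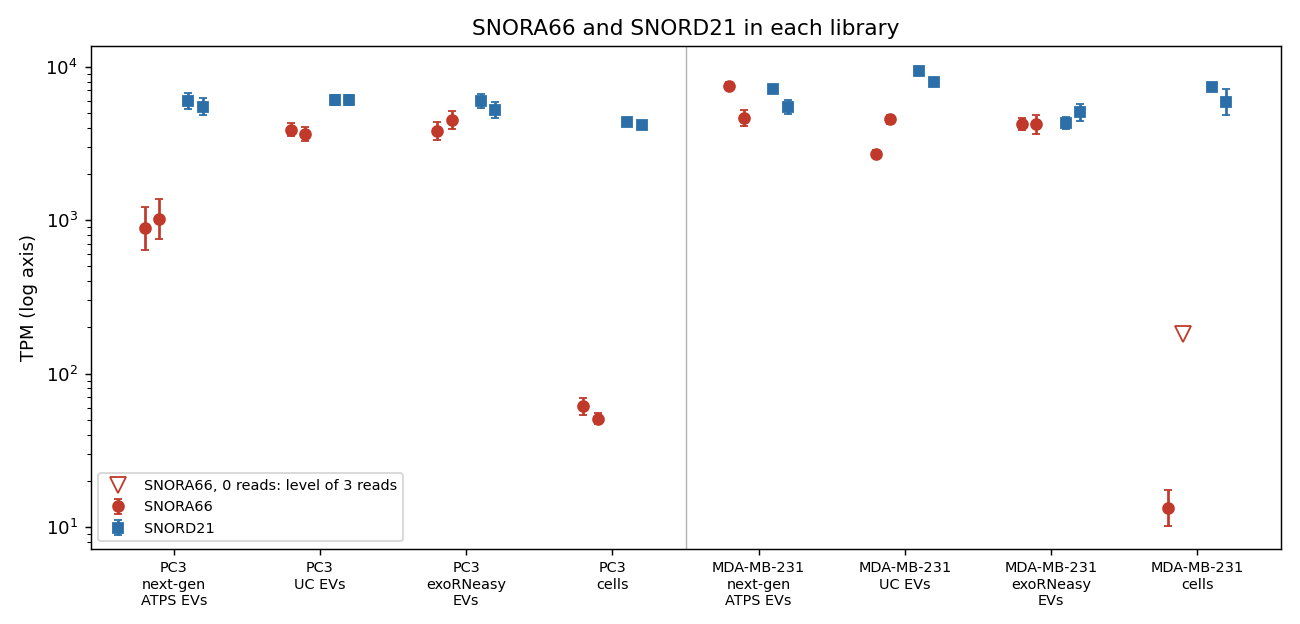
TPM of SNORA66 (red circles) and SNORD21 (blue squares) in each of the 16 libraries on a log axis, with 95% Wilson intervals for counting error. SNORA66 sits at 883 to 7477 TPM in EVs and at 13.3 to 61.0 TPM in the 3 cell libraries in which it was read, while SNORD21 sits at 4168 to 9392 TPM in all libraries. The open triangle is the level of 3 reads in the library with 0 reads.

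Taken by group mean, the order of SNORA66 was MDA-MB-231 next-gen ATPS EVs (6061 ± 2002 TPM, SD, n = 2), MDA-MB-231 exoRNeasy EVs (4212 ± 7.97), PC3 exoRNeasy EVs (4156 ± 478), PC3 UC EVs (3768 ± 150), MDA-MB-231 UC EVs (3619 ± 1293), PC3 next-gen ATPS EVs (947 ± 90.8), PC3 cells (55.9 ± 7.25) and MDA-MB-231 cells. Each neighbouring pair from MDA-MB-231 exoRNeasy EVs to MDA-MB-231 UC EVs overlapped, and the steps down to PC3 next-gen ATPS EVs and on to PC3 cells did not. MDA-MB-231 next-gen ATPS EVs did not overlap the next group, but lay above it by less than their own SD. The order of SNORD21 ran from MDA-MB-231 UC EVs (8670 ± 1021 TPM, SD, n = 2) down to PC3 cells (4254 ± 122), with MDA-MB-231 cells (6616 ± 1025) in the second place. MDA-MB-231 UC EVs did not overlap the next group, and MDA-MB-231 cells, MDA-MB-231 next-gen ATPS EVs (6310 ± 1192) and PC3 UC EVs (6073 ± 1.86) overlapped in turn. Cells were thus the lowest groups for SNORA66 in both lines, but held places near the top and at the bottom for SNORD21.

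Within its class, SNORA66 held a place from 1 to 6 among 143 H/ACA rows in the EV libraries, and the first place in 3 of the 6 MDA-MB-231 EV libraries. It held place 19 in both PC3 cell libraries and place 32 in MDA-MB-231 cell replicate 1. Its share of all H/ACA TPM was 3.55% to 14.8% in EVs, against 0.619% and 0.692% in PC3 cells and 0.181% in MDA-MB-231 cell replicate 1. The class as a whole had a larger share in EVs, but SNORA66 also took a larger part of the class. SNORD21 held places 16 to 32 among 256 C/D rows in EVs and 22 to 33 in cells. Its share of C/D TPM was 0.470% to 0.989% in EVs and 0.422% to 0.743% in cells.

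Set against the pooled reads of both PC3 cell libraries, the mean SNORA66 level of PC3 EVs was 55.5-fold that of PC3 cells, with single EV libraries at 16.6-fold to 84.3-fold, and it was 48.4-fold against PC3 cell replicate 1 alone. In MDA-MB-231 it was 347-fold that of cell replicate 1, with single EV libraries at 203-fold to 561-fold. On the log2(TPM + 1) scale used below, the difference was 5.44 in PC3 and 10.19 in MDA-MB-231, or 8.27 without MDA-MB-231 cell replicate 2. The same figures for SNORD21 were 1.38-fold in PC3 (1.23-fold to 1.44-fold in single libraries) and 0.892-fold in MDA-MB-231 against cell replicate 1 (0.585-fold to 1.28-fold). On the log2 scale SNORD21 differed by 0.44 in PC3 and by -0.06 in MDA-MB-231. Centring each library on the snoRNAs read in all libraries gave 0.02 in PC3 and -1.13 in MDA-MB-231 for SNORD21, so no direction is given for it.

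These values are shares of snoRNA reads in bulk preparations, so fewer vesicles that carry an RNA and less of it per vesicle cannot be told apart. The authors propose that ATPS also takes up cell-free RNA, since cell RNA that they added to CM was recovered with it. They report that RNase A removed the added RNA and left the short EV RNA of CM unaffected. The part of RNA from outside vesicles in these EV values was not tested. The values are also affected by what else was read. The median log2 difference of all 357 rows tested was 0.00 in PC3 and 1.56 in MDA-MB-231, or 1.28 without cell replicate 2, and the part of this shift in the values of both RNAs was not tested. Across all rows, 18.5% were called higher in PC3 EVs than in PC3 cells and 2.24% lower (limma, Benjamini-Hochberg adjusted p under 0.05). In MDA-MB-231, 41.2% were called higher and 5.32% lower, or 30% and 3.36% without cell replicate 2. Scaling decided much of this split, since the calls were 66 higher and 8 lower in PC3 before centring on common snoRNAs and 53 and 46 after it, and 147 and 19 against 105 and 72 in MDA-MB-231.

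Per base of RNA, SNORA66 fragments were fewer than SNORD21 fragments in EVs and rare beside them in cells. The ratio of SNORA66 over SNORD21 reads per base was 0.106 and 0.132 in PC3 next-gen ATPS EVs, 0.456 and 0.431 in PC3 UC EVs, 0.457 and 0.617 in PC3 exoRNeasy EVs, and 0.0100 and 0.00870 in PC3 cells. In MDA-MB-231 it was 0.747 and 0.607 in next-gen ATPS EVs, 0.206 and 0.407 in UC EVs, 0.699 and 0.598 in exoRNeasy EVs, and 0.00130 and 0 in cells, where the 0 allows a ratio of up to 0.0219 (3 SNORA66 reads beside 98 SNORD21 reads). SNORD21 was the more frequent of the pair per base in all 16 libraries. By reads with no length term, SNORA66 was the more frequent in MDA-MB-231 next-gen ATPS replicate 1 (1131 against 1082 reads). No EV library overlapped a cell library, the lowest EV ratio being 0.106 and the highest cell ratio 0.0100, with the limit of the shallow library at 0.0219.

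On the log2 scale the ratio was higher in EVs than in cells by 4.99 in PC3, and by 10.25 in MDA-MB-231, or 8.49 without cell replicate 2. The ratio of reads is taken within a library and does not depend on that library's total. Its log2 form carries the pseudocount of 1 TPM, which weighs on the library with 0 reads. In PC3, SNORA66 differed by 5.44 and SNORD21 by 0.44 in the same direction. The levels of the 2 RNAs showed little correlation across libraries. Over the 16 libraries their log2 levels had a Pearson r of 0.15, and over the 12 EV libraries an r of 0.04, given as a description because libraries of a line and a method share their source.

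**Figure D3:**
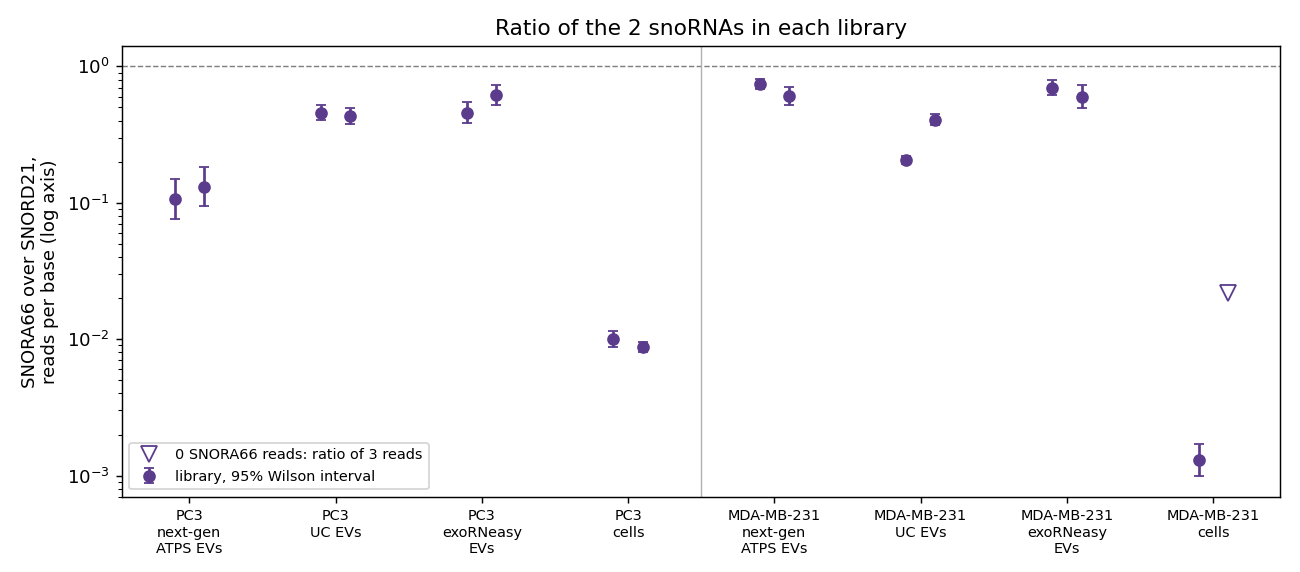
Ratio of SNORA66 over SNORD21 reads per base in each library on a log axis, with 95% Wilson intervals, and a dashed line at equal reads per base. EV libraries lie between 0.106 and 0.747, PC3 cells at 0.0100 and 0.00870, and the open triangle marks the limit of 0.0219 for the cell library with 0 SNORA66 reads.

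Between isolation methods, the mean SNORA66 level of next-gen ATPS EVs moved in opposite directions in the 2 lines. In PC3, next-gen ATPS EVs averaged 947 TPM against 3768 TPM in UC EVs and 4156 TPM in exoRNeasy EVs, which is 0.251-fold and 0.228-fold. In MDA-MB-231, next-gen ATPS EVs averaged 6061 TPM against 3619 TPM in UC EVs and 4212 TPM in exoRNeasy EVs, which is 1.68-fold and 1.44-fold. In each of these 4 pairs of groups the library values did not overlap. With 2 libraries a group, such a split can often arise by chance. In MDA-MB-231 the higher side rests mainly on next-gen ATPS replicate 1 (7477 TPM). The Wilson interval of replicate 2 (4646 TPM, 4136 to 5218) overlapped that of UC replicate 2 (4533 TPM, 4224 to 4864). It also overlapped those of exoRNeasy replicates 1 (4206 TPM, 3844 to 4602) and 2 (4217 TPM, 3653 to 4869). Both PC3 next-gen ATPS libraries were low and they rest on 38 and 42 SNORA66 reads, while those of MDA-MB-231 rest on 1131 and 283.

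The difference between the lines was tested with limma on log2(TPM + 1), in a model with a mean for each of the 8 groups. For next-gen ATPS minus UC EVs, the PC3 difference was lower than the MDA-MB-231 difference by 2.74 on the log2 scale (SE 1.14, adjusted p = 0.555). For next-gen ATPS minus exoRNeasy EVs it was lower by 2.62 (SE 1.14, adjusted p = 0.551). The model called 0 of 357 rows in each of these, 0% in both, against 28 and 26 rows at an unadjusted p under 0.05. The spread of SNORA66 in this model includes the 13.3 and 0 TPM of the MDA-MB-231 cell libraries. In a model of the 12 EV libraries alone, added after the data were seen, the same differences had adjusted p = 0.0133 and 0.0227 (SE 0.50 each), and SNORA66 was the only row called in either, 1 of 350 rows or 0.286%. Count models called it as well, with an adjusted p of 0.0019 and 0.0014 in edgeR and 0.000926 and 0.00632 in DESeq2. Of 357 rows, edgeR called 0 higher and 7 lower against UC EVs, and 1 higher and 3 lower against exoRNeasy EVs. DESeq2 called 0 higher and 10 lower against UC EVs, and 0 higher and 1 lower against exoRNeasy EVs. The comparisons share the next-gen ATPS libraries, so they are not separate support for each other.

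Averaged over both lines, no method difference of SNORA66 was called. Next-gen ATPS minus UC EVs was -0.62 on the log2 scale (SE 0.57, limma adjusted p = 0.628), next-gen ATPS minus exoRNeasy EVs was -0.82 (SE 0.57, adjusted p = 0.622), and UC minus exoRNeasy EVs was -0.20 (SE 0.57, adjusted p = 0.926). For these comparisons limma called 0%, 3.36% and 13.7% of 357 rows, the last with 36 rows higher and 13 lower, or 17 and 19 after centring. At the 0% of next-gen ATPS minus UC EVs, 52 rows had an unadjusted p under 0.05, and edgeR called 16 rows and DESeq2 15. The means over both lines stand for opposite values in PC3 and MDA-MB-231 where next-gen ATPS is involved. For next-gen ATPS minus exoRNeasy EVs, edgeR gave an adjusted p of 0.0437, and called 11 of 357 rows higher and 15 lower.

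For SNORD21 the differences between methods, averaged over both lines, were at most 0.51 in size on the log2 scale. They were larger in MDA-MB-231 than in PC3, with UC over exoRNeasy EVs at 1.86-fold and 1.09-fold. UC EVs had more than exoRNeasy EVs by 0.51 on the log2 scale (SE 0.15, limma adjusted p = 0.0444), with 6073 TPM in UC EVs against 5585 TPM in exoRNeasy EVs of PC3, and 8670 TPM in UC EVs against 4667 TPM in exoRNeasy EVs of MDA-MB-231. The libraries did not overlap in either line. This call was lost in the model of the EV libraries alone (adjusted p = 0.101, 14% of 350 rows called), with edgeR (0.221), with DESeq2 (0.334), after centring on common snoRNAs (0.26, adjusted p = 0.366) and without any of 10 of the 16 libraries (adjusted p of 0.0548 to 0.128). Next-gen ATPS minus UC EVs was -0.28 (SE 0.15, adjusted p = 0.393) and next-gen ATPS minus exoRNeasy EVs was 0.23 (SE 0.15, adjusted p = 0.612). None of the method differences of SNORD21 was called as different between the lines (adjusted p = 0.219 to 0.971), where the test called 0% of rows or, for UC minus exoRNeasy EVs, 0.28%.

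The ratio of the pair was compared between methods with exact permutation tests of the labels within each line, with 36 arrangements and a smallest possible two-sided p of 0.0556. UC minus exoRNeasy EVs was -0.71 on the log2 scale (exact p = 0.0556, adjusted over 5 tests 0.278), with ratios per base of 0.443 in UC EVs against 0.537 in exoRNeasy EVs of PC3, and 0.307 in UC EVs against 0.649 in exoRNeasy EVs of MDA-MB-231. Next-gen ATPS minus UC EVs was -0.34 (exact p = 0.667, adjusted 0.667) and next-gen ATPS minus exoRNeasy EVs was -1.05 (exact p = 0.278, adjusted 0.417). The averages again hid the lines, since next-gen ATPS minus UC EVs was -1.91 in PC3 and 1.22 in MDA-MB-231. That difference of the ratio between lines was not tested.

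Between cell lines, SNORA66 was -0.85 on the log2 scale in PC3 EVs relative to MDA-MB-231 EVs over the 3 methods (SE 0.47, limma adjusted p = 0.166), with 2957 ± 1583 TPM in PC3 EVs and 4631 ± 1560 TPM in MDA-MB-231 EVs (SD, n = 6 each). In this comparison 33.3% of rows were called, 65 higher and 54 lower, or 48 and 72 after centring. The limma model of the EV libraries alone called SNORA66 lower in PC3 EVs (adjusted p = 0.00345), where 32% of rows were called. SNORA66 was also called lower by edgeR (adjusted p = 7.08e-05) and by DESeq2 (adjusted p = 0.000277). Of 357 rows, edgeR called 48 higher and 88 lower here, and DESeq2 called 61 higher and 71 lower. By method, the lower PC3 value stood in the next-gen ATPS libraries, while UC and exoRNeasy libraries of the lines overlapped. SNORD21 was -0.13 (SE 0.13, adjusted p = 0.454), with 5793 ± 362 TPM in PC3 EVs and 6549 ± 1946 TPM in MDA-MB-231 EVs. The ratio was -0.73 (exact permutation p = 0.222 over 216 arrangements, adjusted 0.417, smallest possible p 0.00926).

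In the cells themselves, PC3 had more SNORA66 than MDA-MB-231 cell replicate 1. The 0 of MDA-MB-231 cell replicate 2 allows up to 180 TPM, so that library cannot be told from PC3 cells. With that 0 taken as a value, the difference between the lines was 3.90 on the log2 scale (SE 0.81, limma adjusted p = 0.00222). There 20.2% of all rows were called higher in PC3 cells and 2.24% lower. Its size depended on the library with 0 reads, being 1.98 without MDA-MB-231 cell replicate 2 (limma adjusted p = 0.0024, 15.1% of rows called). That fit leaves MDA-MB-231 cells with 1 library, which is assumed to vary like the other groups. The values behind the smaller figure are 61.0 and 50.8 TPM in PC3 cells against 13.3 TPM in MDA-MB-231 cell replicate 1, where counting intervals are apart (53.4 to 69.7 and 46.7 to 55.2 TPM against 10.2 to 17.5 TPM). Quantile normalization gave 2.44 with an adjusted p of 0.0921. The count models gave smaller differences, 1.51 with edgeR (adjusted p = 0.0135) and 1.82 with DESeq2 (adjusted p = 0.00611). Of 357 rows, edgeR called 83 higher and 42 lower, and DESeq2 59 higher and 22 lower.

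SNORD21 ran the other way, at 4254 ± 122 TPM in PC3 cells and 6616 ± 1025 TPM in MDA-MB-231 cells (SD, n = 2 each). The difference was -0.63 on the log2 scale (SE 0.22, limma adjusted p = 0.0525) and did not pass. It passed with edgeR (-0.95, adjusted p = 0.0323), with DESeq2 (-0.92, adjusted p = 0.00757) and after centring (-1.51, adjusted p = 0.00032). Of 357 rows, edgeR called 83 higher and 42 lower in PC3 cells, and DESeq2 called 59 higher and 22 lower. The ratio in cells, 4.53 higher in PC3 on the log2 scale, cannot give an exact p under 0.333 with 2 libraries a group. The median of all rows in this comparison was 0.86, and centring moved it to -0.02. The calls over all rows split 72 higher and 8 lower before centring, and 44 higher and 34 lower after it. Without MDA-MB-231 cell replicate 2 the median was 0.44 and the calls were 49 higher and 5 lower.

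Other snoRNAs of ribosomal protein genes give the setting of these values. The H/ACA list held 14 RNAs from 11 host genes, such as RPS2, RPSA and RPL10, and the C/D list 36 RNAs from 14 host genes, such as RPL7A and RPL13A, and all were tested. For SNORA78 the annotation did not show the host listed, RPS2, and for the others it did. In PC3 EVs relative to PC3 cells, 3 of 14 H/ACA RNAs rose, none fell and 11 were not called, with a median log2 difference of 0.42, beside 9 risen, 3 fallen and 24 uncalled of 36 C/D RNAs with a median of 0.08. That is 21.4% of the H/ACA list and 25.0% of the C/D list higher, against 18.5% of all rows. In MDA-MB-231 without cell replicate 2, 6 of 14 H/ACA RNAs rose and none fell, with a median of 3.24, beside 9 risen and 8 fallen of 36 C/D RNAs with a median of -0.00. Of all rows 30% were higher and 3.36% lower in that fit, which rests on a single MDA-MB-231 cell library, against 42.9% higher of the H/ACA list and 25.0% higher and 22.2% lower of the C/D list. SNORA66 at 5.44 in PC3 lay above the highest member of the H/ACA list there (4.90), and in MDA-MB-231 at 8.27 it also lay above the highest (6.90). SNORD21 at 0.44 in PC3 and -0.22 in MDA-MB-231 lay between the ends of the C/D list in each line. These places describe the pair, which was chosen for them.

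The H/ACA list was itself uneven, even within a host. SNORA10, in an intron of RPS2, had the highest mean difference over both lines (6.43, SE 0.55, limma adjusted p = 2.13e-07), with 24.1 to 1777 TPM in EVs (median 267), the lowest being 1 read, and 0 to 3.33 TPM in cells. SNORA64, in another intron of RPS2, had the lowest (0.50, SE 0.35, adjusted p = 0.276), with 46.5 to 361 TPM in EVs and 60.1 to 165 TPM in cells. The ranges overlapped for SNORA64, and for SNORA10 all EV values were above the 0.844 to 3.33 TPM of the 3 deep cell libraries. Of the C/D list, SNORD15B of RPS3 was highest (3.63, SE 0.24, adjusted p = 1.52e-08), with 365 to 1546 TPM in EVs and 48.5 to 92.3 TPM in cells. SNORD4B of RPL23A was lowest and fell (-1.05, SE 0.26, adjusted p = 0.00384), with 242 to 1254 TPM in EVs and 1448 to 1984 TPM in cells. On the mean of both lines 38.1% of all rows were called higher and 6.44% lower, or 32.5% and 3.36% without MDA-MB-231 cell replicate 2. Without that library the differences were 5.90 for SNORA10, 0.13 for SNORA64, 3.71 for SNORD15B and -1.02 for SNORD4B, and SNORA64 and SNORD4B were no longer the lowest of their lists.

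**Figure D4:**
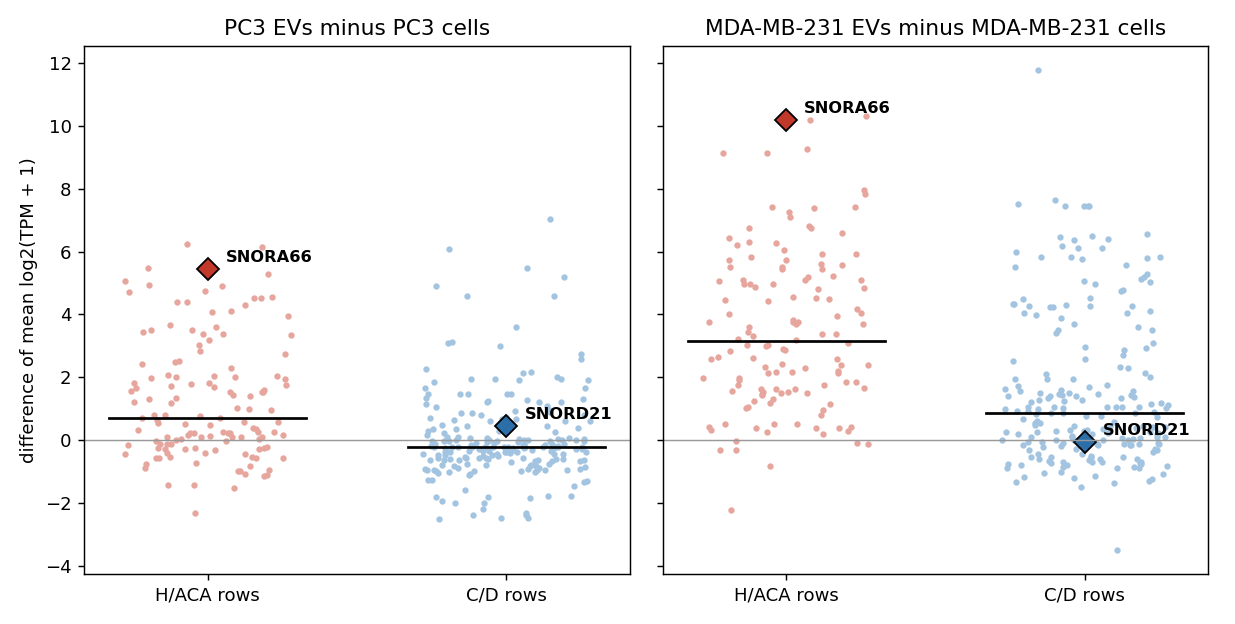
Difference of mean log2(TPM + 1), EVs minus cells, for each tested H/ACA row (light red) and C/D row (light blue) in PC3 and in MDA-MB-231, with the median of each class without its named member as a black bar. SNORA66 lies at 5.44 and 10.19, the fourth and the third highest of 133 H/ACA rows, and SNORD21 at 0.44 and -0.06 lies among the bulk of 212 C/D rows. The MDA-MB-231 panel includes the cell library of 16635 reads, without which SNORA66 is at 8.27.

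Among the whole classes, SNORA66 had the highest mean difference over both lines of the 133 H/ACA rows tested (7.81) and was in place 3 of all 357 rows, or in place 2 of 133 and 4 of 357 without MDA-MB-231 cell replicate 2 (6.85). The median of the other H/ACA rows was 0.71 in PC3, and 2.29 in MDA-MB-231 without cell replicate 2. SNORD21 was in place 59 of 212 C/D rows in PC3 and 155 in MDA-MB-231 without cell replicate 2, where the medians of the other C/D rows were -0.23 and 0.48. Both members passed the filter on low values through cells as well as EVs, but many H/ACA rows had few or no reads in cells, so class medians on this scale depend on the pseudocount.

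RPL5 is not the only host with a member of each class, and 9 others were compared by summing the TPM of their H/ACA rows and of their C/D rows. In PC3, the difference between EVs and cells was larger for the H/ACA sum than for the C/D sum in 6 of 9 hosts, by -0.95 to 3.67 on the log2 scale (median 0.69), beside 4.99 for RPL5. In MDA-MB-231 without cell replicate 2 it was larger in 9 of 9, by 0.13 to 6.37 (median 3.08), beside 8.49 for RPL5. RPL5 had the largest gap of the 10 hosts in each line, a rank of the sums that its choice may have fixed. Single rows could differ more than the sum of their host. In MDA-MB-231 without cell replicate 2, SNORA32 of TAF1D differed by 9.10 and SNORA18 of TAF1D by -0.58, beside 8.27 for SNORA66. The C/D rows of TAF1D, SNORD5 and SNORD6, differed there by -0.73 and 0.07. In PC3, SNORA44 of SNHG12 differed by 5.28 and SNORA16A by 0.40, beside 1.48 for SNORD99 of that host and 5.44 for SNORA66.

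SNHG12 is a long non-coding host gene. Its 3 H/ACA rows summed to 1686 to 4788 TPM in PC3 EVs (median 3361) against 273 and 210 TPM in PC3 cells, and its C/D row was at 2576 to 4533 TPM in PC3 EVs (median 3782) against 1271 and 1253 TPM in PC3 cells. Both classes of SNHG12 were thus higher in PC3 EVs than in PC3 cells, with a gap of 2.26 between them. In MDA-MB-231 the H/ACA sum was at 2019 to 6398 TPM in EVs (median 4581) against 537 TPM in cell replicate 1, but the C/D row was at 2922 to 4548 TPM in EVs (median 3632) against 8324 and 9739 TPM in cells, so the C/D row was lower in EVs there and the gap against cell replicate 1 was 4.05. TAF1D hosts 6 H/ACA and 2 C/D rows of the comparison. Its H/ACA sum was at 1890 to 2481 TPM in PC3 EVs against 1775 and 1720 TPM in PC3 cells, and its C/D sum at 12753 to 19819 TPM in PC3 EVs against 10689 and 11681 TPM in PC3 cells, a gap of -0.35. SNORA18, the most abundant H/ACA row of TAF1D, carried most of that sum (0.09, limma adjusted p = 0.926), while the rarer SNORA25 and SNORA32 were higher in PC3 EVs than in PC3 cells by 3.96 (limma adjusted p = 0.00282) and 2.49 (adjusted p = 0.0319). The H/ACA sums of RPS12, the host with the next largest gaps (3.67 in PC3 and 6.37 in MDA-MB-231), were at 0 to 69.7 TPM in PC3 EVs, which is a few reads.

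**Figure D5:**
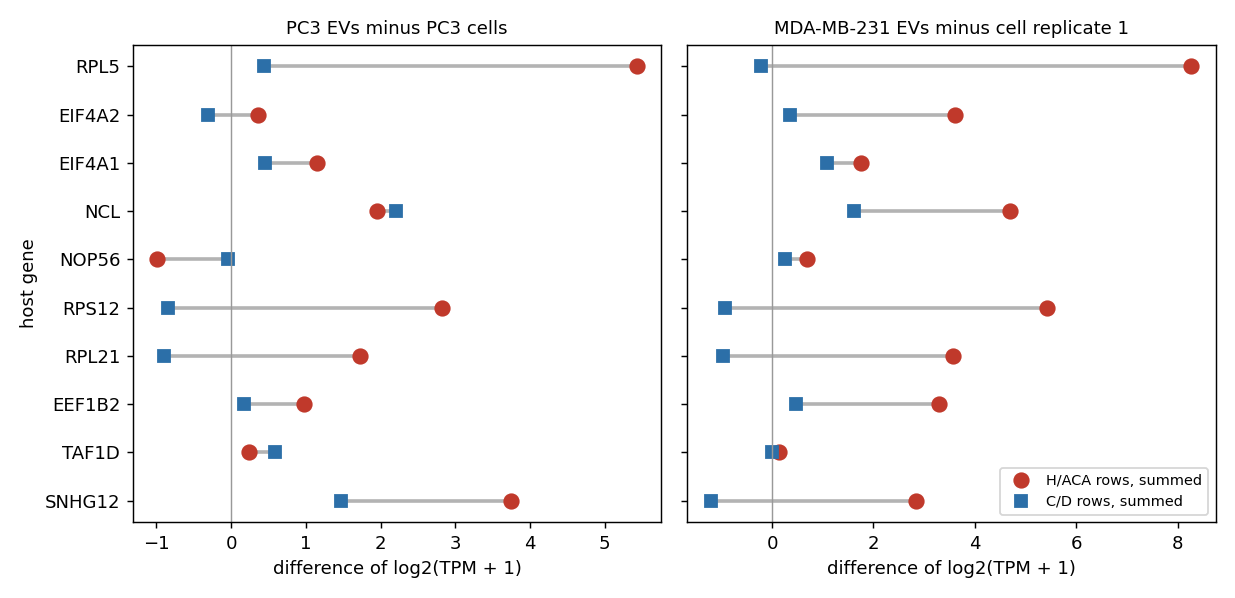
Difference of log2(TPM + 1) between EVs and cells for the summed H/ACA rows (red circles) and the summed C/D rows (blue squares) of RPL5 and 9 other hosts, with a grey line joining the classes of a host. In PC3 both cell libraries were used and in MDA-MB-231 cell replicate 1 alone. RPL5 has the longest line in both panels, 4.99 and 8.49.

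The rows most like each member over the 16 libraries, by Pearson r of log2(TPM + 1) among 280 other rows with a mean of at least 10 TPM, came from its own class. For SNORA66 they were SNORA38 (r = 0.96), SNORA81 (0.95) and SNORA79 (0.95). SNORA79 was at 145 to 3081 TPM in EVs (median 628) and at 0 to 20.3 TPM in cells, SNORA38 at 93.6 to 284 TPM in EVs and 0 to 5.16 TPM in cells, and SNORA81 at 68.4 to 319 TPM in EVs and 0 to 11.5 TPM in cells. What they share with SNORA66 is the gap between EVs and cells, since within the 12 EV libraries the r values were 0.28 for SNORA38, 0.07 for SNORA81 and 0.44 for SNORA79. For SNORD21 they were SNORD6, SNORD38B and SNORD93 (r = 0.76, 0.76 and 0.75), which had r values of 0.69, 0.77 and 0.74 within the EV libraries. SNORA66 was in place 135 of the 280 rows for likeness to SNORD21.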

How the data were processed

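Small RNA libraries of 16 samples in 8 groups were analysed, 12 of EVs and 4 of cells, grouped by the sample labels. Per the authors, trimming used Q20 in a 4-base window, only lengths of 18 to 35 bases were retained, STAR placed them on hg38 and COMPSRA assigned them to RNA classes (versions not given in the sources used here), and reads mapping to several places were counted with more weight on unique ones. The snoRNA table as deposited calls its values TPM. They behave as CPM of the snoRNA reads: column sums were equal, and dividing by the worth of 1 read gave whole numbers for 100% of values (tolerance 0.1 read). The miRNA values deposited by the authors are CPM of the same kind and served for marker miRNAs only. circRNA entries were not used, since they name no host gene. A share rises when other RNAs of the class fall, and fragments of 35 bases or less need not mirror whole snoRNAs.

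The tests had been planned for TPM, and the log scale was kept. limma 3.58.1 in R 4.3.3 was fitted to log2(TPM + 1) with trend and robust options, over the 357 of 413 rows that reached 1 TPM in 2 or more libraries, and each of the 8 groups had its own mean. Benjamini-Hochberg adjustment ran over all rows of a comparison, with a threshold of 0.05. The ratio was tested by exact permutation of labels within strata (scipy 1.17.1), adjusted over 5 tests. edgeR 4.0.16 and DESeq2 1.42.0 were run on recovered reads as alternatives, together with a pseudocount of 10, other filters, quantile normalization, centring, a replicate block and leaving out each library. Simulated data with known changes were used to test the limma fit after centring on common snoRNAs, and not the main fit without centring. All replicate pairs differed beyond counting noise (chi-square per degree of freedom 2.04 to 130), so none was counted as 1 sample, and cell reads were pooled only for the fold of PC3 EVs over PC3 cells. Positions and sequences come from GENCODE v44 and hg38.

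The rule for named rows took both members, the 3 rows most like each by Pearson r, the sums of each class in hosts with both, and the highest and lowest members of the ribosomal protein lists. SNHG12 (with SNORA16A, SNORA44 and SNORD99), TAF1D (with SNORA18, SNORA25, SNORA32, SNORD5 and SNORD6) and RPS12 were singled out after their values were seen. The members and lists were chosen with earlier results of these data known.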

Additional observations from a re-analysis of the deposited data

Results flagged for a closer look

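The SNORA66 level of next-gen ATPS EVs relative to UC EVs went in opposite directions in the 2 lines, every PC3 library being lower and every MDA-MB-231 library higher, and the difference between the lines was -2.74 on the log2 scale (SE 1.14, limma adjusted p = 0.555, or 0.0133 in the model of the EV libraries alone). The same held against exoRNeasy EVs, with a difference between the lines of -2.62 (SE 1.14, limma adjusted p = 0.551, or 0.0227 in the EV libraries alone). The low side rests on 2 PC3 libraries with 38 and 42 SNORA66 reads, and both comparisons use these libraries. The high side rests mainly on MDA-MB-231 next-gen ATPS replicate 1 (7477 TPM). The counting interval of replicate 2 (4646 TPM) overlapped those of UC replicate 2 and of both exoRNeasy libraries of that line.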

How the results depend on the processing

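The differences of SNORA66 between EVs and cells kept their direction under each alternative run. In PC3 the main value of 5.44 was 5.23 with a pseudocount of 10, 4.64 after quantile normalization and 5.01 after centring, and in MDA-MB-231 the main value of 10.19 was 8.18, 8.005 and, without a library, 8.27 to 12.11. The ratio, 4.99 in PC3, was 4.79 with a pseudocount of 10 and 4.30 after quantile normalization, and 10.25 in MDA-MB-231 became 8.24, 8.19 and, without a library, 8.49 to 12.01. SNORD21 in PC3, 0.44, was 0.34 after quantile normalization and 0.018 after centring, and in MDA-MB-231, -0.06, it was -1.13 after centring and -0.22 to 0.10 without a library. MDA-MB-231 cell replicate 2, with 16635 reads, limits what can be said of these cells. The upper ends of 12.11 for SNORA66 and 12.01 for the ratio leave it as the only MDA-MB-231 cell library. With its 0 reads of SNORA66, both depend on the pseudocount.

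SNORA66 in PC3 relative to MDA-MB-231 EVs, -0.85 and not called, was called at -0.85 with a pseudocount of 10 (limma adjusted p = 0.00875) and in the EV libraries alone, at -1.03 with edgeR and -1.04 with DESeq2, and ranged from -0.98 to -0.73 without a library. For next-gen ATPS minus exoRNeasy EVs, edgeR called it at -0.85. The difference between the lines for next-gen ATPS minus UC EVs was called at -2.66 with edgeR, -2.91 with DESeq2 and -2.74 in the EV libraries alone, and ranged from -3.12 to -2.37 without a library, with calls only when an MDA-MB-231 cell library was left out. For next-gen ATPS minus exoRNeasy EVs the values were -2.72, -2.75, -2.62 and -2.96 to -2.27, with the same exception. In cells, the SNORA66 difference of 3.90 became 1.51 with edgeR and 1.82 with DESeq2, both called, and 2.44 after quantile normalization with no call.

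SNORD21 in UC minus exoRNeasy EVs lost its call at 0.26 after centring, 0.48 with edgeR, 0.30 with DESeq2 and 0.51 in the EV libraries alone, and ranged from 0.45 to 0.57 without a library. In PC3 minus MDA-MB-231 cells it gained one at -0.63 without a filter and with the replicate block (adjusted p = 0.0315), -1.51 after centring, -0.95 with edgeR and -0.92 with DESeq2, and ranged from -0.79 to -0.47 without a library. Replicate numbers were not used to pair the libraries in the main model. Deviations of replicate 1 from replicate 2 of 28 pairs of groups correlated at -0.213 to 0.273 (median 0.0266, 5 over 0.1). Such correlations cannot settle if libraries of the same number share a source. The block with the replicate number changed no other call of the 2 RNAs.

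Counts of called rows moved as follows. Next-gen ATPS minus UC EVs, 0, became 3 without a filter, 16 with edgeR, 15 with DESeq2 and 0 to 1 without a library. Next-gen ATPS minus exoRNeasy EVs, 12, became 19 with a pseudocount of 10, 26 with edgeR, 19 in the EV libraries alone and 7 to 20 without a library. UC minus exoRNeasy EVs, 49, ranged from 12 to 70 without a library. PC3 minus MDA-MB-231 cells, 80, became 125 with edgeR. Between the lines, next-gen ATPS minus UC EVs, 0, became 3 without a filter, 7 with edgeR, 10 with DESeq2, 1 in the EV libraries alone and 0 to 1 without a library. Next-gen ATPS minus exoRNeasy EVs, 0, became 1, 4, 1 and 1 under the same settings and 0 to 5 without a library. UC minus exoRNeasy EVs, 1, became 5 with a pseudocount of 10, 4 without a filter, 0 after quantile normalization or centring, 30 with edgeR, 22 with DESeq2, 2 with the replicate block, 11 in the EV libraries alone and 0 to 17 without a library. For the ratio, 4 of the 5 tests cannot give a p under 0.05 at these numbers, so their p-values say nothing of stability, and the ratio of PC3 minus MDA-MB-231 EVs, which can, was not called under any alternative run. The cause of these changes was not tested.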
